A study of Homo sapiens with 6 samples.

Results

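The mitochondrial respiratory chain was examined in THP1, a human monocytic leukaemia line (labelled acute myeloid leukaemia), after culture on the Notch ligand Dll4-Fc. Its members were the protein-coding genes for nuclear-encoded subunits of complexes I to V, chosen by gene symbol: SDHA to SDHD, CYC1, the NDUFA, NDUFB, NDUFC, NDUFS and NDUFV series, the UQCR series, the lettered COX5 to COX8 genes and the ATP5 series. The rule used no measured value. It found 78 genes among the 19775 genes of the array. Of these, 75 are protein-coding and are called subunits here (32 of complex I, 3 of complex II, 7 of complex III, 15 of complex IV and 18 of complex V). They include ATP5IF1, an inhibitor of complex V, and COX7A2L, which takes part in supercomplex formation. The other 3 are noncoding RNAs named after a neighbouring subunit gene (NDUFV2-AS1, NDUFV1-DT and NDUFB2-AS1). Subunit genes to which the rule gave no probe set, among them SDHB, NDUFC2 and UQCRH, are not analysed here. The 75 subunits were read by 146 probe sets, and each gene was represented by its probe set with the highest mean.

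The groups were cells kept for 48 hours on a Dll4-Fc coating (3 arrays) and cells kept for the same time on vehicle, called untreated in the sample labels (3 arrays). Dll4-Fc is the Notch ligand DLL4 fused to the Fc part of an antibody. The coating was 30 nM in the treatment protocol and 60 nM in the sample labels, and no Fc-only well is named. All 6 samples were grown in RPMI with serum, and 5 ng of total RNA each was amplified and hybridised to Affymetrix Human Genome U133 Plus 2.0 arrays. THP1 is 1 cell line, and the labels do not say whether the replicates came from separate cultures, so p-values reflect only how these samples varied, which could be technical variation. Of 8 myeloid marker genes measured 6 rose and 2 fell. PTPRC (log2 intensity 12.29 on Dll4-Fc and 11.68 untreated) and LYZ (13.87 and 11.87) were among those that rose. Those that fell were MPO (5.86 and 6.65) and CEBPA (12.08 and 12.28). CD14, a monocyte marker, read 10.63, 10.67 and 10.55 on Dll4-Fc, against 5.46, 4.56 and 4.90 in untreated cells, where all 3 arrays lay below 5.70, the median of all probe sets. Of 7 markers of other cell types, CD3E, CD3D, MS4A1, EPCAM and CDH5 lay below that median, COL1A1 lay above it, and PECAM1, which monocytes also carry, rose by 0.55.

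Complexes I to IV pass electrons from NADH and succinate to oxygen in the inner mitochondrial membrane, and all but complex II pump protons as they do so. Complex V, the ATP synthase, lets the protons flow back and makes ATP. Most subunits are encoded in the nucleus and imported, a few core subunits are encoded by mitochondrial DNA, and the chain is assembled with the help of dedicated factors. Activated and differentiating macrophages are known for shifting between oxidative phosphorylation and glycolysis.

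Differences in the respiratory chain genes between Dll4-Fc and untreated cells were small, and few passed in the main fit. Of the 75 subunits 3 rose and 9 fell (limma, Benjamini-Hochberg adjusted p under 0.05 over all genes), which is 4% and 12% of them, while 11.6% of all genes rose and 15% fell. Either way 16% of the subunits passed, and 26.6% of all genes did. With a trended robust variance prior, an alternative setting, these shares were 38.7% and 31.5%. None of the 12 subunits past the threshold in the main fit differed by 2-fold, and 634 of all genes did. The log2 difference, Dll4-Fc minus untreated, had a median of -0.04 over the subunits, with quartiles of -0.09 and 0.04, and a median of -0.01 over all genes, with quartiles of -0.14 and 0.10.

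Differences of bright probe sets are measured more precisely, so the subunits were also set beside genes at or above the median probe set. These genes share only that floor of 5.70. They were not matched in brightness to the subunits, whose complex means ran up to 12.59. Of the subunits, 70 lay at or above the median probe set signal, and 11 of these passed (15.7%), 3 higher and 8 lower. Of 12747 such genes 37.3% passed, 16% higher and 21.3% lower. The size of the difference was under 0.25 for 91.4% of these 70 subunits and for 66.1% of these genes, and its median was 0.07 and 0.16. No test of these differences in share was made. For 74 of the 75 subunits the 95% interval of the difference lay within a 1.5-fold change (0.58 on the log2 scale) in either direction, the exception being COX8C. The same held for 85.2% of all genes and for 80.6% of genes at or above the median probe set. Like the p-values, these intervals reflect only how these samples varied, which could be technical variation. RMA and quantile normalization make all arrays alike in total signal, so these are differences relative to the other genes, and fewer cells of a type cannot be told apart from less RNA per cell.

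**Figure D1:**
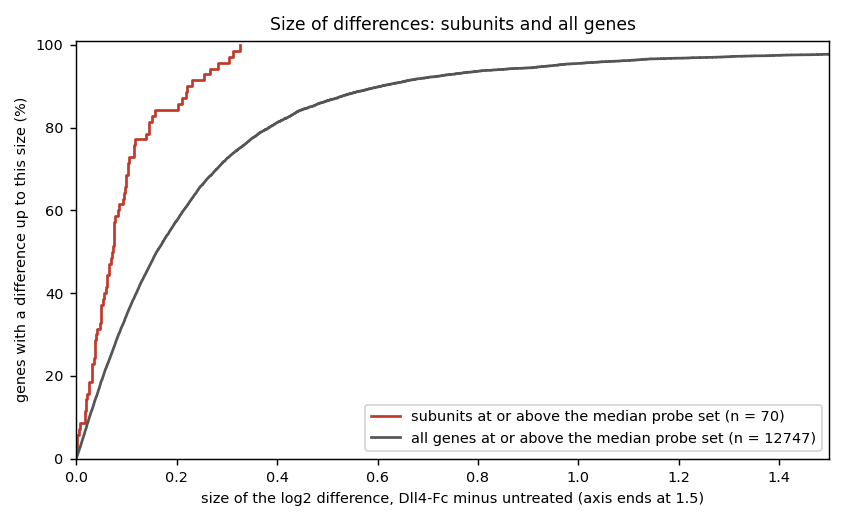
Cumulative share of genes (vertical, percent) whose log2 difference between Dll4-Fc and untreated is no larger than the size on the horizontal axis, for the 70 subunits and the 12747 genes at or above the median probe set. The subunit curve lies above that of all such genes: 91.4% of subunits and 66.1% of genes differ by less than 0.25.

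The groups did not overlap for 41 of the 75 subunits (54.7%), 14 higher and 27 lower (18.7% and 36%). They did not overlap for 41.6% of all genes, 18.1% higher and 23.5% lower. At or above the median probe set, the groups did not overlap for 55.7% of the 70 subunits and 55.8% of the 12747 genes. Of these subunits 18.6% were higher and 37.1% lower without overlap, and of these genes 23.4% and 32.4%. Averaged over its 32 genes, complex I read 11.81, 11.83 and 11.85 on Dll4-Fc, against 11.91, 11.89 and 11.84 in untreated cells. The lowest untreated array lay inside the range of the Dll4-Fc arrays. The mean of the 18 complex V genes was 12.47 ± 0.02 on Dll4-Fc and 12.49 ± 0.02 untreated (SD, n = 3 each), and that of the 7 complex III genes was 12.59 ± 0.01 on Dll4-Fc and 12.59 ± 0.02 untreated.

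**Figure D2:**
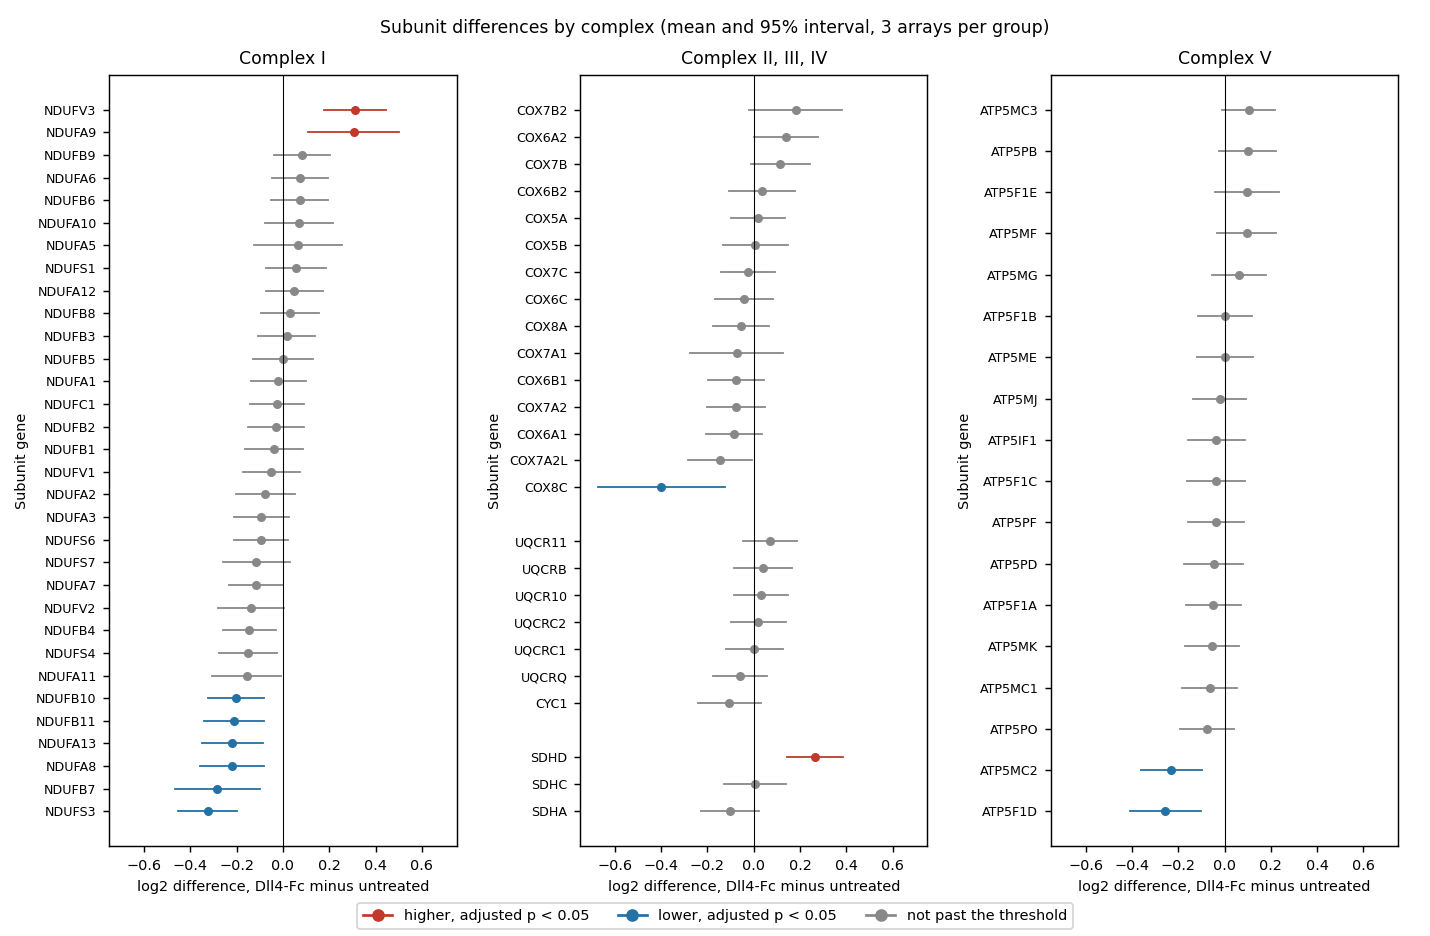
Log2 difference, Dll4-Fc minus untreated (horizontal), with its 95% interval for each of the 75 subunit genes (vertical), by complex, 3 arrays per group. Red marks the 3 that rose, blue the 9 that fell and grey those not past the threshold. Every point lies between -0.40 and 0.31.

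Complex I held most of the calls, 6 lower and 2 higher among 32 subunits (18.75% and 6.25%), with a median difference of -0.04. Together 25% of its subunits passed, beside 26.6% of all genes and 37.3% of genes at or above the median probe set, where all 32 lie. The largest fall was that of NDUFS3, a core subunit of the arm that carries electrons to ubiquinone. It read 11.38, 11.44 and 11.41 on Dll4-Fc, against 11.79, 11.70 and 11.72 in untreated cells. All 3 Dll4-Fc arrays lay below all untreated arrays, and the difference was -0.33 ± 0.05 (standard error, n = 3 per group), or 1.25-fold lower (limma adjusted p = 0.00385). Its probe set is the only one for the gene. The other core subunits measured gave no call: NDUFS1 (0.06), NDUFV1 (-0.05), NDUFS7 (-0.12) and NDUFV2 (-0.14).

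The other 5 that fell encode supernumerary subunits, which surround the catalytic core, in the membrane arm. NDUFB7, of the distal membrane arm, read 10.36, 10.35 and 10.33 on Dll4-Fc, against 10.76, 10.66 and 10.47 in untreated cells (-0.28 ± 0.08, adjusted p = 0.0338). The untreated arrays spread more widely than the Dll4-Fc arrays, and the groups did not overlap. The other probe set of NDUFB7, which lay below the median probe set, gave -0.05. NDUFB11 and NDUFB10 of the same arm fell by 0.21 ± 0.06 and 0.20 ± 0.05 on the log2 scale (adjusted p = 0.0268 and 0.0236). NDUFA8, a membrane-arm subunit, fell by 0.22 ± 0.06 (adjusted p = 0.0296). NDUFA13, also known as the cell-death gene GRIM-19, read 12.54, 12.60 and 12.62 on Dll4-Fc, against 12.81, 12.85 and 12.75 in untreated cells. These did not overlap, with a difference of -0.22 ± 0.06 (adjusted p = 0.0243). The calls of NDUFB7, NDUFB11, NDUFB10 and NDUFA13 rest on probe sets marked as shared between transcripts. NDUFB11, NDUFB10 and NDUFA13 have no other kind. Of the 11 NDUFB genes 3 fell (27.3%) and none rose in the limma fit. All 11 lay at or above the median probe set, where 21.3% of genes fell and 16% rose.

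The opposite direction was taken by NDUFV3 and NDUFA9. NDUFV3, an accessory subunit of the NADH-oxidising tip, read 10.82, 10.84 and 10.82 on Dll4-Fc, against 10.56, 10.55 and 10.44 in untreated cells. The Dll4-Fc arrays were nearly equal and all above the untreated arrays, a rise of 0.31 ± 0.06 or 1.24-fold (adjusted p = 0.00586). The call rests on a probe set marked as shared between transcripts, and the unshared probe set gave 0.07 (adjusted p = 0.438). NDUFA9, which joins the matrix arm to the membrane arm, read 9.67, 9.69 and 9.73 on Dll4-Fc, against 9.49, 9.47 and 9.20 in untreated cells (0.31 ± 0.08, adjusted p = 0.0333). The third untreated array lay well below the other two.

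**Figure D3:**
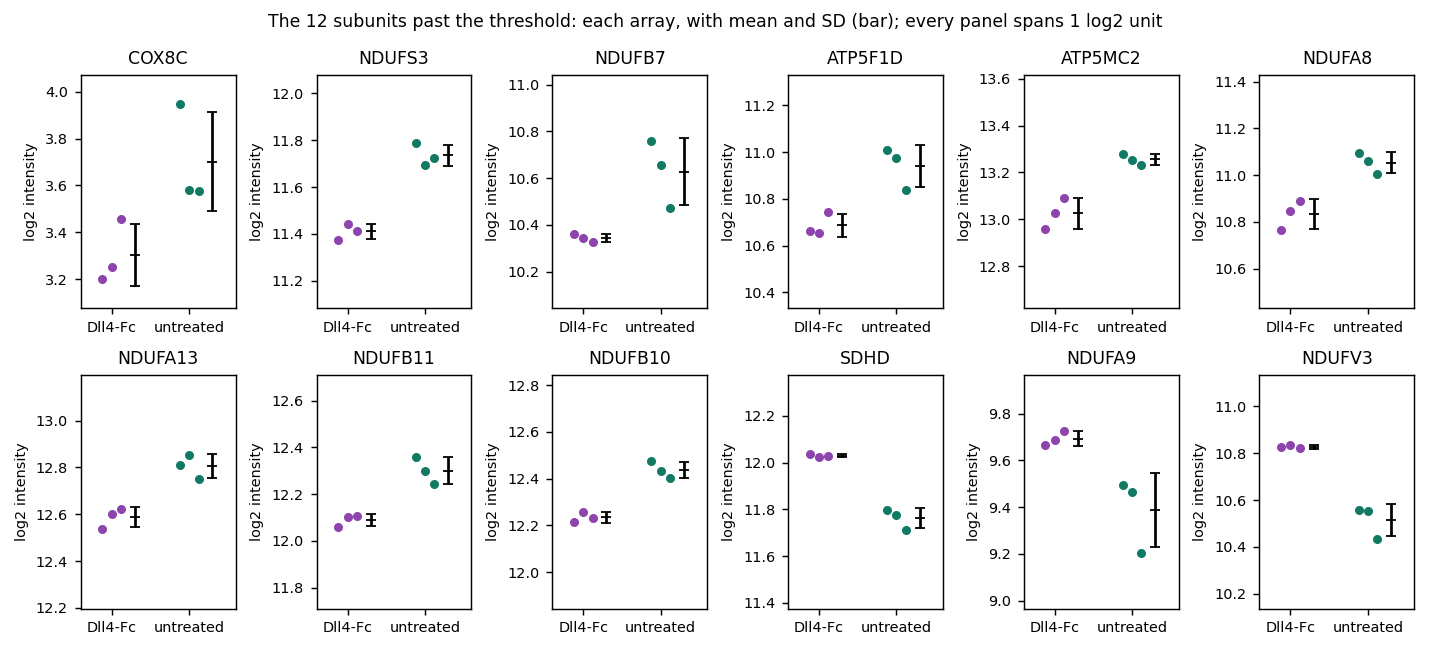
Log2 intensity (vertical) on each array for the 12 subunits past the threshold, Dll4-Fc at the left and untreated at the right of each panel, with group mean and SD as bars (n = 3). Every panel spans 1 log2 unit. The groups do not overlap in any of the 12 panels.

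Complex II, succinate dehydrogenase, links the citric acid cycle to the chain, and 1 of its 3 measured genes rose. SDHD, a membrane anchor, read 12.04, 12.02 and 12.03 on Dll4-Fc, against 11.80, 11.78 and 11.71 in untreated cells. The groups were separate, with a rise of 0.27 ± 0.05 or 1.20-fold (adjusted p = 0.00786). Its other probe set, below the median probe set, gave 0.08. SDHC, the partner anchor, differed by 0.01 (95% interval -0.13 to 0.14), and none of its 7 probe sets passed. SDHA, the catalytic flavoprotein, read 10.62, 10.67 and 10.67 on Dll4-Fc, against 10.78, 10.70 and 10.79 in untreated cells. The groups did not overlap, but the difference of -0.10 ± 0.05 did not pass (adjusted p = 0.223).

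In complex III, which passes electrons from ubiquinol to cytochrome c, no gene passed: 0 of 7, with differences between -0.10 and 0.07 and 95% intervals no wider than -0.24 to 0.19. CYC1, cytochrome c1, differed by -0.10 ± 0.06 (adjusted p = 0.248), and the structural core genes UQCRC1 and UQCRC2 by 0.00 and 0.02. UQCRB differed by 0.04, although the dimmest of its 4 probe sets rose by 0.66 (adjusted p = 0.00594 over all probe sets), lying below the median probe set in both groups. Over all probe sets of the array 7.21% rose and 9.25% fell; of the 146 probe sets of the subunits 3 rose and 5 fell. Among the 43 subunits with several probe sets, 37 had none past the threshold and 0 had probe sets past it in opposite directions.

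Complex IV, cytochrome c oxidase, hands electrons to oxygen. Its nuclear subunits include tissue-restricted isoforms, expressed in muscle or testis, beside the widely expressed ones. The only call was COX8C, the testis isoform, at -0.40 ± 0.12 (adjusted p = 0.042). It read 3.20, 3.25 and 3.45 on Dll4-Fc, against 3.95, 3.58 and 3.58 in untreated cells, all far below the median probe set of 5.70, where a signal may be background. Its widely expressed counterpart COX8A differed by -0.06. The pairs COX6A1 and COX6A2 gave -0.08 and 0.14, and COX6B1 and COX6B2 gave -0.08 and 0.04. COX7A1 and COX7A2 gave -0.07 and -0.08, and COX7B2 gave 0.18 (adjusted p = 0.178). COX7A2L, which takes part in supercomplex formation, differed by -0.14 ± 0.06 without passing (adjusted p = 0.117). All 5 restricted isoforms (COX6A2, COX6B2, COX7A1, COX7B2 and COX8C) lay below the median probe set, and the other 10 genes of the complex lay above it with 0 calls in the limma fit.

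In complex V 2 of 18 genes fell (11.1%) and 0 rose. All 18 lay at or above the median probe set, where 21.3% of genes fell and 16% rose. ATP5F1D, the delta subunit of the rotating central stalk, read 10.66, 10.65 and 10.74 on Dll4-Fc, against 11.01, 10.97 and 10.84 in untreated cells. The groups were separate, with a difference of -0.26 ± 0.07 or 1.19-fold lower (adjusted p = 0.0247). It was the only subunit with several probe sets of which all passed: the other probe set gave -0.31. Both are marked as shared between transcripts, and the gene has no unshared probe set here. The membrane ring of the synthase is built of copies of subunit c, which ATP5MC1, ATP5MC2 and ATP5MC3 each encode. ATP5MC2 read 12.96, 13.03 and 13.09 on Dll4-Fc, against 13.28, 13.25 and 13.23 in untreated cells (-0.23 ± 0.06, adjusted p = 0.0215). Those arrays did not overlap, but the call came from a probe set shared between transcripts, and the unshared one, near the median probe set, gave 0.07 (adjusted p = 0.656). ATP5MC3 differed by 0.10 ± 0.05 (adjusted p = 0.176) and ATP5MC1 by -0.06. The catalytic F1 subunits ATP5F1A and ATP5F1B differed by -0.05 and 0.00. None of the 4 peripheral stalk genes or the 5 small membrane subunits passed. Of the latter, ATP5MF read only 5.93 on Dll4-Fc and 5.84 untreated. That is close to the median probe set of 5.70, so its signal may be background. ATP5IF1, the inhibitor that stops the enzyme from running backwards, differed by -0.04.

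Most calls were lost with fewer arrays, while the differences kept their direction. The number of subunits past the threshold was 3 without Dll4-Fc replicate 1, 3 without Dll4-Fc replicate 2, 8 without Dll4-Fc replicate 3, 4 without untreated replicate 1, 3 without untreated replicate 2 and 13 without untreated replicate 3, in place of 12. NDUFS3 passed in all 14 alternative settings, SDHD in 13 of them (not with the mean of its probe sets, adjusted p = 0.06) and NDUFV3 in 13 (not without shared probe sets). The other 9 calls were each lost on leaving out Dll4-Fc replicate 1, Dll4-Fc replicate 2 or untreated replicate 2, and in all on leaving out any of 4 or 5 of the 6 arrays. Their differences then stayed within 1.44 times those with all arrays, and the fits had 3 residual degrees of freedom in place of 4. A trended robust variance prior called 29 subunits, 8 higher and 21 lower. That is 38.7% of the subunits, beside 31.5% of all genes, so with this prior the subunits passed more often than all genes. The share among genes at or above the median probe set was not counted with this prior. Whether the brightness of the subunits accounts for the higher share was not tested.

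Subunit genes outside the symbol rule showed no call. NDUFAB1, the acyl carrier protein of complex I, differed by -0.05, COX4I1 by -0.06 and its isoform COX4I2 by 0.03. COXFA4, formerly NDUFA4, differed by 0.01 and COXFA4L2 by -0.10. COXFA4L3, known as a gene of inflamed cells whose product takes the place of COXFA4, read below the median probe set in both groups and differed by -0.14 ± 0.18 (adjusted p = 0.638). Its value moved with the Dll4-Fc array left out: -0.09 without replicate 1, 0.02 without replicate 2 (adjusted p = 0.948) and -0.36 without replicate 3 (adjusted p = 0.0283). None of the 6 passed with all arrays. The 13 subunits encoded by mitochondrial DNA are not analysed here. Of the 3 noncoding RNAs, NDUFV2-AS1 differed by -0.22 (adjusted p = 0.0769), NDUFV1-DT by 0.10 and NDUFB2-AS1 by 0.11, none past the threshold.

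Of 125 genes that assemble the chain and feed it 8.8% rose and 14.4% fell, beside 11.6% and 15% of all genes. At or above the median probe set lay 122 of the 125, and 11 of these rose and 18 fell. Of all genes at or above that median 16% rose and 21.3% fell, so there the related genes were called less often. Of 64 assembly factors 5 rose and 10 fell (7.81% and 15.6%), with a median of -0.02 and quartiles of -0.15 and 0.09. They were not tested against the subunits. UQCC5, a complex III factor, read 8.96, 9.19 and 9.06 on Dll4-Fc, against 8.14, 8.07 and 7.97 in untreated cells. That separation amounts to a rise of 1.01 ± 0.08 or 2.02-fold (adjusted p = 9.3e-05), although 3 of its 5 probe sets did not pass. NDUFAF3, which helps to build the arm that holds NDUFS3, read 10.88, 10.85 and 10.95 on Dll4-Fc, against 11.47, 11.45 and 11.44 in untreated cells. All Dll4-Fc arrays were lower, by 0.56 ± 0.05 or 1.47-fold (adjusted p = 0.00026).

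Among 19 complex I factors NDUFAF3, DMAC1 (-0.24) and TMEM126B (-0.18) fell and 0 rose, and of the 4 complex II factors none passed. TMEM126B gave 0.18 without shared probe sets (adjusted p = 0.348). For complex III, 9 factors, UQCC5 and UQCC4 (0.29) rose and LYRM7 (-0.43), UQCC3 (-0.38) and UQCC6 (-0.32) fell. For complex IV, 26 factors, HIGD1A (0.52) and COA7 (0.30) rose and COX11 (-0.23), PET100 (-0.20) and COA3 (-0.20) fell. HIGD1A gave 0.31 without shared probe sets (adjusted p = 0.0567). The calls of TMEM126B, UQCC6, COX11, PET100 and COA3 were each lost when replicate 1 or replicate 2 of either group was left out, that of PET100 also without untreated replicate 3. DMAC1 lost its call without replicate 1 of either group, Dll4-Fc replicate 3 or untreated replicate 2, and COA7 without Dll4-Fc replicate 1. For complex V, 6 factors, TMEM70 rose (0.31) and ATPAF1 fell (-0.43), and TMEM70 gave -0.19 without shared probe sets (adjusted p = 0.12).

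Of 20 genes for mobile electron carriers and ubiquinone synthesis 3 rose and 5 fell (15% and 25%). All 20 lay at or above the median probe set, where 16% of genes rose and 21.3% fell. SQOR, which feeds electrons from hydrogen sulfide into ubiquinone, read 12.22, 12.31 and 12.14 on Dll4-Fc, against 11.57, 11.45 and 11.46 in untreated cells. It was higher on all Dll4-Fc arrays, by 0.73 ± 0.07 or 1.66-fold (adjusted p = 0.000226). COQ2, a ubiquinone synthesis enzyme, rose by 0.53 ± 0.05, while COQ10A (-0.46 ± 0.09), COQ8A (-0.44 ± 0.06) and COQ3 (-0.43 ± 0.09) fell. Of 15 citric acid cycle and pyruvate dehydrogenase genes IDH3A (0.55 ± 0.07) and SUCLG2 (0.20 ± 0.06) rose and 0 fell, with a median of 0.06. The rises are 13.3% of this list, and all 15 genes lay at or above the median probe set. IDH3A, a subunit of the NAD-dependent isocitrate dehydrogenase, gave 0.02 without shared probe sets (adjusted p = 0.942), and SUCLG2 did not pass without any one of the 6 arrays (adjusted p between 0.0507 and 0.125).

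Of 16 genes of mitochondrial biogenesis and mitochondrial DNA expression PPARGC1B rose and POLG2 and TFB1M fell. These are 6.25% and 12.5% of the list, beside 11.6% and 15% of all genes. PPARGC1B, a coactivator of respiratory genes, read 8.39, 8.36 and 8.45 on Dll4-Fc, against 7.81, 7.90 and 7.67 in untreated cells. The difference was 0.61 ± 0.07 or 1.52-fold (adjusted p = 0.000753), and 3 of its 4 probe sets did not pass. POLG2, of the mitochondrial DNA polymerase, fell by 0.33 ± 0.07 and TFB1M, a mitochondrial ribosomal RNA methyltransferase, by 0.26 ± 0.05. TFB1M gave -0.19 without shared probe sets (adjusted p = 0.262). Of 10 carrier, pore and uncoupling genes SLC25A4, an ADP/ATP carrier, fell by 0.31 ± 0.07 and 0 rose. That is a fall in 10% of the list, beside 15% of all genes. The call of SLC25A4 was lost without Dll4-Fc replicate 1, Dll4-Fc replicate 2 or untreated replicate 1 (adjusted p = 0.0606, 0.0514 and 0.0551). Of its 2 probe sets 1 did not pass, and their mean differed by only -0.08 (adjusted p = 0.492).

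**Figure D4:**
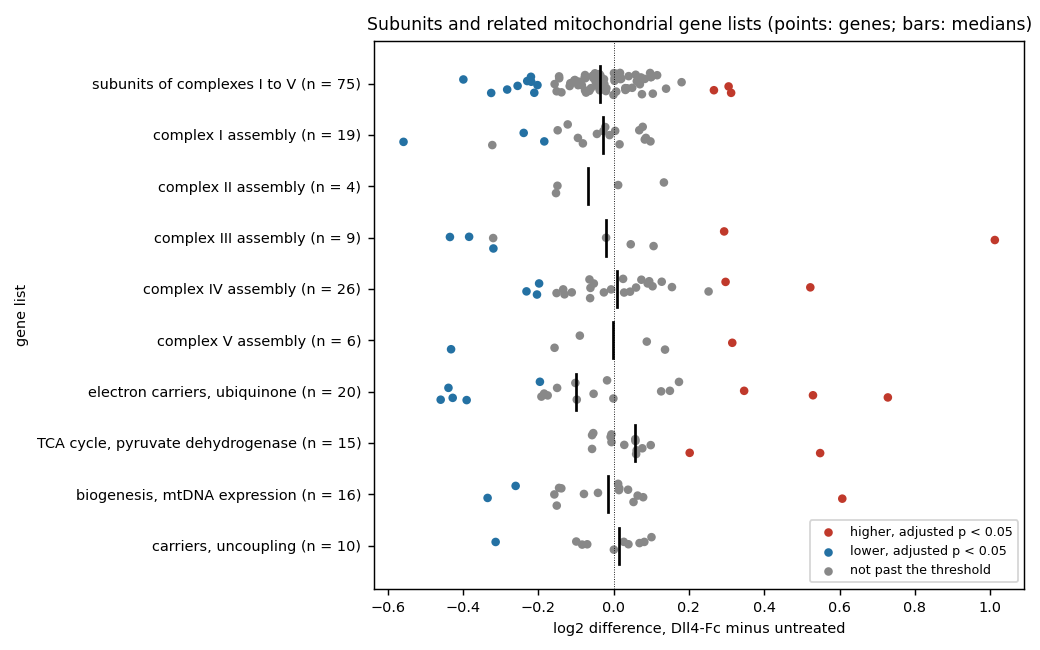
Log2 difference, Dll4-Fc minus untreated (horizontal), of each gene in the 75 subunits and in 9 related gene lists (vertical), 3 arrays per group. Points are genes, scattered vertically for legibility; black bars are list medians. The subunits lie between -0.40 and 0.31, while single assembly and carrier genes reach -0.56 and 1.01.

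The promoters of the subunits were searched for short motifs known from respiratory genes, a feature that the symbol rule did not use. Promoter windows of 300 bases (250 before and 50 after the start) were found in RefSeq, build GRCh38.p14, for 64 of the 75. The window of NDUFS3, the largest fall at or above the median probe set, lies at chr11:47578824-47579123 on the plus strand; that of SDHD, which rose, at chr11:112086623-112086922 on the plus strand; and that of UQCRC1, which did not move, at chr3:48609597-48609896 on the minus strand. They are given 5′ to 3′, and capitals mark matches to the NRF1, ETS, YY1 or ERRA motifs below on either strand.
NDUFS3: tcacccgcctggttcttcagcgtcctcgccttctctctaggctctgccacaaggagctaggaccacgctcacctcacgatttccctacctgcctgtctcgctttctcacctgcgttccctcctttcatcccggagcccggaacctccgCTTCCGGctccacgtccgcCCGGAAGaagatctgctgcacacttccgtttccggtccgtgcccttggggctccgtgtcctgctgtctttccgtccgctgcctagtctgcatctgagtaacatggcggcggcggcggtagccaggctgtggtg
SDHD: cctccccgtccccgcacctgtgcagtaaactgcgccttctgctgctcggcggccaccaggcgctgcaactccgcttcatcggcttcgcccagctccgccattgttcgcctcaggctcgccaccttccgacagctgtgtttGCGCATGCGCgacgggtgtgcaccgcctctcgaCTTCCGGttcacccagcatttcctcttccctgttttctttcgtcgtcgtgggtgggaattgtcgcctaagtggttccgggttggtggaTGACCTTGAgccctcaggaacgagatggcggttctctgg
UQCRC1: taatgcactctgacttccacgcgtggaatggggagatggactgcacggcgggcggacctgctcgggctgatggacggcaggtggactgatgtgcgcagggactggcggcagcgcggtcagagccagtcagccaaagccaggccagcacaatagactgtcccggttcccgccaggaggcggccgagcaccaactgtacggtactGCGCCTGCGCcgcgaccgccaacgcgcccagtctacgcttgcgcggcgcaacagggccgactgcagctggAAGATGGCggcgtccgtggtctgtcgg
The first window holds ETS matches only, the second 1 NRF1, 1 ETS and 1 ERRA match, and the third 1 NRF1 and 1 YY1 match.

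The NRF1 motif, GCGC, any base and then TGCGC, was present in 16 of 64 subunit windows (25%) and in 5.78% of all 35116 promoter windows. The ETS motif CCGGAAG, bound by GABPA among others, was in 17 subunit windows (26.6%) and in 10.3% of all. The YY1 motif AAGATGGC was in 10 (15.6%) and in 2.89% of all, and the ERRA motif TCAAGGTCA in 1, that of SDHD, and in 0.353% of all. The core motif of the Notch effector RBPJ, TGGGAA, was in 21 subunit windows (32.8%) and in 24% of all. Among the 21485 windows of genes tested here the shares were 7.58% (NRF1), 12.9% (ETS), 3.6% (YY1), 0.256% (ERRA) and 22.8% (RBPJ). Each subunit was counted by 1 window, while other genes could have several. The NRF1 motif was found in 2 of 3 windows of subunits that rose, 2 of 8 of those that fell and 12 of 53 of those not past the threshold. For the RBPJ motif these counts were 2 of 3, 1 of 8 and 18 of 53. Both strands were searched for each motif, and a match is one of letters, not a binding site.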

How the data were processed

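Expression was measured in THP1 cells on 6 arrays, 1 per sample. The deposited table holds 1 linear intensity for each of 54675 probe sets and array, made by the authors with RMA (named, without a version, per the submitters' processing notes). Here intensities were log2 transformed. Of the probe sets 41097 had exactly 1 gene symbol in the platform annotation, giving 19775 genes. A 2-sided limma test (version 3.58.1 under R 4.3.3; lmFit, then eBayes) with 4 residual degrees of freedom compared both groups, with Benjamini-Hochberg adjustment over all genes. Differences are Dll4-Fc minus untreated, with standard errors or 95% intervals; the number of arrays limits the precision (median standard error 0.05 for subunits and 0.08 for all genes). The procedure was tested on simulated data.

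The members, the gene lists and the motifs were chosen with earlier results of these data known, and the 1.5-fold bound and the motifs after the files were seen. Named are, in each complex, up to 6 rises and 6 falls past the threshold, the SDH genes, isoform sets, ATP5IF1, genes outside the symbol rule and up to 4 passing members of each related list; others are named to spell out counts or gaps. Shared probe sets are those with IDs ending in _s_at, _x_at or _a_at. Alternatives were the replicate block, the mean of all probe sets, no shared probe sets, no dim genes, cyclic loess, median centring, a trended robust prior, array weights and leaving out each array.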

Additional observations from a re-analysis of the deposited data

How the results depend on the processing

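The number of subunit calls, 12, moved with the setting. Of subunits, 9 fell; this became 21 under the trended robust prior, 3 without shared probe sets (62 measured) and 1 to 9 when 1 array was left out; the count that rose, 3, was 8 with that prior, 5 with array weights and 2 to 4 when 1 array was left out. Of all genes, 1795 to 2269 rose and 1850 to 3189 fell when 1 array was left out. Cyclic loess turned the split of all calls to 53.7% higher, in place of 43.7%. The median subunit difference was -0.015 without shared probe sets and -0.0056 with cyclic loess. In complex I, 16 passed with the trended prior, 3 without shared probe sets and 2 to 8 with 1 array left out. In complex II, 0 passed with the mean of probe sets. In complex III, 1 passed with that mean or the trended prior. In complex IV, 0 passed without dim genes or with cyclic loess, 5 with the trended prior, 3 with array weights and 0 to 2 with 1 array left out. In complex V, 1 passed when probe sets were averaged, 0 without the shared ones, 6 with the trended prior and 0 to 2 with 1 array left out. Of 125 related genes, 11 rose and 18 fell; 18 rose with cyclic loess, 17 rose with the trended prior and 33 fell with array weights, and 10 to 19 fell with 1 array left out. Among the 12 called subunits only ATP5MC2 changed sign, to 0.068 without shared probe sets; among related genes TMEM126B gave 0.00017 when its probe sets were averaged, TMEM126B also 0.185 and TMEM70 -0.19 once shared probe sets were dropped. The cause was not tested. Across the 14 alternatives, 43 subunits never passed.

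Replicate numbers share only a number: deviations of same-numbered arrays correlated at 0.01, -0.21 and -0.15 over all genes. With the replicate block 1 subunit fell (NDUFS3), 2 passed in complex I, 0 in complex IV and 0 in complex V, and 11 related genes fell. Leaving out an array leaves 3 residual degrees of freedom, fewer than the 4 of the full comparison.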

Other observations

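Some subunit genes start close to a neighbour on the opposite strand. How often other genes do so was not counted. Of the 64 subunits with a promoter window, 23 had such a neighbour within 1000 bases facing away from them, and 21 of the neighbours were measured. Of these 21 neighbours 1 rose, 2 fell and 18 did not pass, while 11.6% of all genes rose and 15% fell. NDUFB11 fell together with RBM10, an RNA-binding protein gene 519 bases away, by 0.21 each. KBTBD4, 104 bases from NDUFS3, differed by -0.25 ± 0.10 without passing (limma adjusted p = 0.111). HAUS1, a spindle gene next to ATP5F1A, fell by 0.30 ± 0.07, and WDR77, next to ATP5PB, rose by 0.20 ± 0.06, while neither subunit passed. GABPA, whose product binds the ETS motif and whose gene starts 68 bases from ATP5PF, differed by -0.16 ± 0.08 (adjusted p = 0.233).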
